A study of Mus musculus with 9 samples.

Results

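The genes for mitochondrial ribosomal proteins were examined in mouse epididymal white fat, the visceral pad attached to the epididymis. They were taken as all protein-coding genes of the deposited table whose symbol is Mrpl or Mrps followed by a number, a choice made on the names alone. The rule found 78 of the table's 28481 genes, and all 78 had enough counts to be tested. The study compared 4 UBKO libraries, whose genotype label is a Ucp1-cre-driven Ctnnb1 knockout, with 5 Control libraries. Ctnnb1 encodes beta-catenin, through which canonical Wnt signals reach transcription, and Ucp1 is the uncoupling protein of thermogenic adipocytes. Every sample of both genotypes had been given CL316,243, an agonist of the beta3-adrenergic receptor, so the comparison is between genotypes under stimulation, and no unstimulated group was analysed here. Deletion under a Ucp1 promoter reaches cells that have switched that promoter on, while the RNA came from the whole pad. The labels used here give no age, sex or strain and do not say whether each library was a separate animal. The p-values therefore rest on the spread among these libraries, part or all of which may be technical.

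The mitochondrial ribosome translates the mRNAs of the mitochondrial genome, which encode core subunits of the respiratory chain and of ATP synthase. It has a large and a small subunit. Its proteins are encoded in the nucleus, made in the cytosol and imported, while its rRNAs, mt-Rnr1 of the small and mt-Rnr2 of the large subunit, are transcribed inside the organelle. Some of its proteins descend from those of bacterial ribosomes and others are found in mitochondria alone. Thermogenic fat cells are rich in mitochondria, and their respiratory chain draws on both mitochondrial and cytosolic translation.

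Read counts per library summed to between 15308480 and 17632709, of which the 78 genes together held 0.273% to 0.324% in UBKO libraries and 0.312% to 0.367% in Control libraries. The targeted gene, Ctnnb1, had 180, 210, 307 and 199 CPM (read counts relative to the library total, rescaled by TMM as below) in UBKO replicates 1 to 4, against 339, 360, 294, 286 and 276 CPM in Control replicates 1 to 5. The library labelled UBKO replicate 3 lay within the Control range, and the log2 difference of -0.48 (SE 0.17) did not pass edgeR's test (adjusted p = 0.0976), while it passed with DESeq2 (adjusted p = 0.0411) and in edgeR with library totals (-0.88, adjusted p = 0.0123). Control replicates 1 and 2 stood apart: 8 epididymal secretory genes held 2.36% and 2.10% of their counts, and at most 0.00018% in each other library, where 3 to 7 of the 8 were at 0. All 12 adipocyte markers had counts in every library, with a summed level of 39191 to 58220 CPM in UBKO and 22331 to 47063 CPM in Control libraries. All 13 macrophage markers were lower in UBKO libraries (summed level 312 to 428 CPM in UBKO and 1255 to 2769 CPM in Control libraries), with none at 0. Transcripts of the mitochondrial genome held 20.1% to 25.4% of counts in UBKO libraries and 8.78% to 17.8% in Control libraries. In bulk tissue, fewer cells of a type and less RNA per cell cannot be told apart. The part of these differences in the results below was not tested, beyond the fits without Control replicates 1 and 2.

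Against the bulk of the transcriptome, the genes of the mitochondrial ribosome stood slightly higher in UBKO fat. With edgeR's quasi-likelihood test on counts scaled by TMM, a scaling that sets the typical gene to no change, 7 of the 78 genes (8.97%) were higher in UBKO libraries and 0 were lower at an adjusted p under 0.05. Over all 16123 genes tested, 3.88% were called higher, 7.56% lower and 11.4% either way. The 7 were Mrps18c, Mrps35, Mrpl33, Mrps18a, Mrps15, Mrpl35 and Mrps2, and their log2 differences ran between 0.45 and 0.58. At an unadjusted p under 0.05, 22 of the genes were higher and 0 lower, against 12.4% and 16.1% of all genes. DESeq2's Wald test called 12 higher (15.4%) and 0 lower, against 6.81% and 11.4% of all genes; the 5 that edgeR did not call were Mrpl1, Mrpl50, Mrpl39, Mrpl11 and Mrps30. The log2 difference was positive for 67 of the 78 (85.9%), against 49.4% of all genes tested. The differences were small: their median was 0.19, with quartiles at 0.05 and 0.33, against a median of -0.01 over all genes, and 49 of the 78 lay within 0.25 of 0.

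The direction depended on the scaling. With library totals alone, the scale of the deposited FPKM (fragments per kilobase of gene length and per library total), 0 of the 78 genes were higher and 8 were lower, against 1.46% and 27.8% of all genes. The 8 were Mrps12, Mrpl41, Mrpl24, Mrpl48, Mrps26, Mrpl34, Mrps28 and Mrpl54. On that scale 0 genes were higher at an unadjusted p under 0.05 as well, limma on FPKM also called 0 higher, and 14 of the 78 log2 differences were positive. The scaling moved the median of all genes to -0.39 and that of the Mrp genes to -0.20. Relative to the median of all genes, the Mrp genes thus stood 0.19 higher in UBKO libraries with TMM and 0.20 higher with library totals. The TMM factors were 0.82 to 0.93 in UBKO libraries and 0.997 to 1.33 in Control libraries. All differences below are relative to the TMM scale unless another is named.

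**Figure D1:**
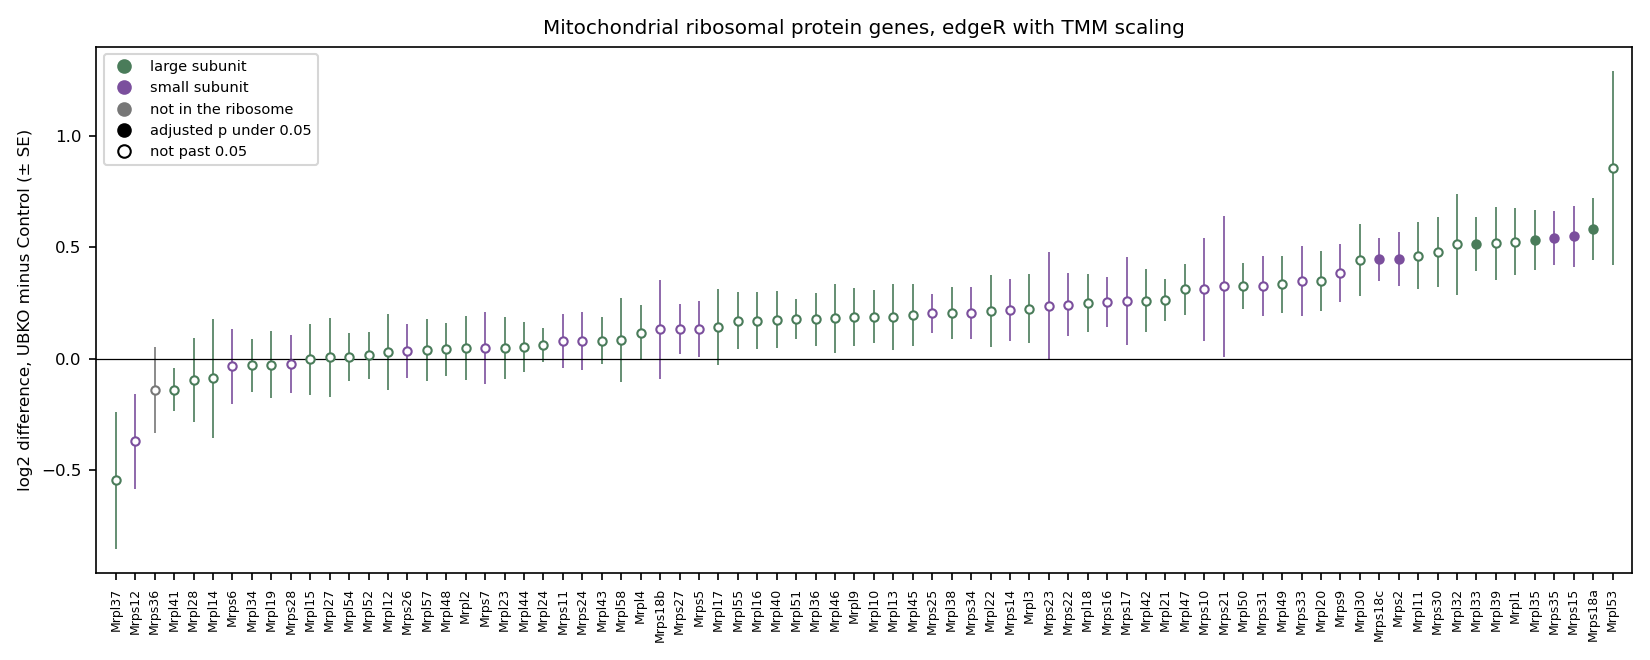
Log2 difference (UBKO minus Control, TMM scale) of each of the 78 Mrp genes, with its standard error, in order of size and coloured by subunit. Filled points mark the 7 genes past the adjusted p of 0.05; 67 of the 78 lie above 0, the lowest at -0.54 (Mrpl37) and the highest at 0.85 (Mrpl53).

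The called genes of the small subunit were Mrps18c, Mrps35, Mrps15 and Mrps2. Mrps18c (ENSMUSG00000016833, mm10 chromosome 5, 100798627 to 100804471, plus strand) encodes 1 of 3 mitochondrial relatives of a bacterial small-subunit protein. It had 32.4, 27.3, 33.8 and 31.2 CPM in UBKO replicates 1 to 4, against 20.5, 24.4, 22.3, 23.0 and 24.4 CPM in Control replicates 1 to 5. Every UBKO library lay above every Control library, and the log2 difference was 0.45 (SE 0.10, edgeR adjusted p = 0.0199), the smallest adjusted p of the 78. Mrps35 (ENSMUSG00000040112, chromosome 6, 147042764 to 147073991, plus strand), a small-subunit protein without a bacterial counterpart, had 54.0, 46.7, 57.7 and 52.1 CPM in UBKO libraries, against 27.8, 36.4, 39.3, 37.5 and 39.9 CPM in Control libraries. The groups did not overlap, Control replicate 1 stood well below the other Control libraries, and the log2 difference was 0.54 (SE 0.12, edgeR adjusted p = 0.0209). Mrps2 (ENSMUSG00000035772, chromosome 2, 28468066 to 28471178, plus strand), the counterpart of a bacterial small-subunit protein, had 63.0, 51.9, 64.3 and 57.6 CPM in UBKO libraries, against 33.6, 43.0, 47.0, 47.6 and 46.2 CPM in Control libraries. These groups did not overlap either, with a log2 difference of 0.45 (SE 0.12, edgeR adjusted p = 0.0431). Mrps15 (ENSMUSG00000028861, chromosome 4, 126046925 to 126055532, plus strand) is also the counterpart of a bacterial protein. Its values were 68.5, 50.3, 74.8 and 67.4 CPM in UBKO libraries and 37.5, 41.2, 51.1, 48.9 and 44.4 CPM in Control libraries. UBKO replicate 2 fell just below Control replicate 3, so the groups overlapped, and the log2 difference was 0.55 (SE 0.14, edgeR adjusted p = 0.0315).

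The called genes of the large subunit were Mrpl33, Mrps18a and Mrpl35. Mrps18a (ENSMUSG00000023967, chromosome 17, 46110986 to 46128910, plus strand) carries a small-subunit name, but its product sits in the large subunit of the mammalian mitochondrial ribosome. It had 65.6, 56.4, 61.4 and 59.9 CPM in UBKO libraries, against 31.6, 33.9, 47.2, 43.6 and 46.9 CPM in Control libraries. The groups did not overlap, and the log2 difference of 0.58 (SE 0.14, edgeR adjusted p = 0.0263) exceeded that of each other called gene. Mrpl33 (ENSMUSG00000106918, chromosome 5, 31596935 to 31664384, plus strand), a small protein with a bacterial counterpart, had 73.2, 62.5, 87.3 and 76.2 CPM in UBKO libraries, against 43.7, 52.4, 52.8, 52.9 and 59.7 CPM in Control libraries. It also separated the groups, with a log2 difference of 0.52 (SE 0.12, edgeR adjusted p = 0.0254). Mrpl35 (ENSMUSG00000052962, chromosome 6, 71812997 to 71826969, minus strand), which has a bacterial counterpart too, had 48.2, 37.1, 51.7 and 49.4 CPM in UBKO libraries, against 25.5, 33.0, 32.8, 32.2 and 37.5 CPM in Control libraries. UBKO replicate 2 and Control replicate 5 overlapped, and the log2 difference was 0.53 (SE 0.13, edgeR adjusted p = 0.0323).

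These calls depended on which libraries were fitted, as did those over all genes. Leaving out UBKO replicate 1, UBKO replicate 4 or the library labelled UBKO replicate 3 left 0 of the 78 genes past the threshold each time, in fits that called 1.39%, 0.926% and 0.915% of all genes higher. Leaving out UBKO replicate 2 or Control replicate 3 gave 9 higher each, against 3.45% and 6.01% of all genes. Leaving out Control replicate 2 gave 4, against 2.24%. Without Control replicate 1 or 4 there were 6 each, against 2.62% and 2.99% of all genes. Without Control replicate 5 there were 5, against 2.33%. Without Control replicates 1 and 2 and UBKO replicate 2, all 7 were called together with Mrpl1, Mrpl11 and Mrps30, against 2.63% of all genes higher. UBKO replicate 2 was the lowest UBKO library for all 7 called genes. Fits without it raise their UBKO means by construction and add no separate support. Leaving out both Control replicates 1 and 2 alone left 2 higher and 0 lower, against 1.5% and 4.9% of all genes in that fit. Those 2 were Mrps35, at 0.42 (edgeR adjusted p = 0.0453), and Mrps18a, at 0.39 (edgeR adjusted p = 0.0453), and the median of the 78 was then 0.09. Over the whole list, 6 genes (7.69%) had every UBKO library above every Control library, against 6.41% of all genes tested, and 0 had every UBKO library below, against 9.11%. The sixth, beside 5 of the called genes, was Mrps30.

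**Figure D2:**
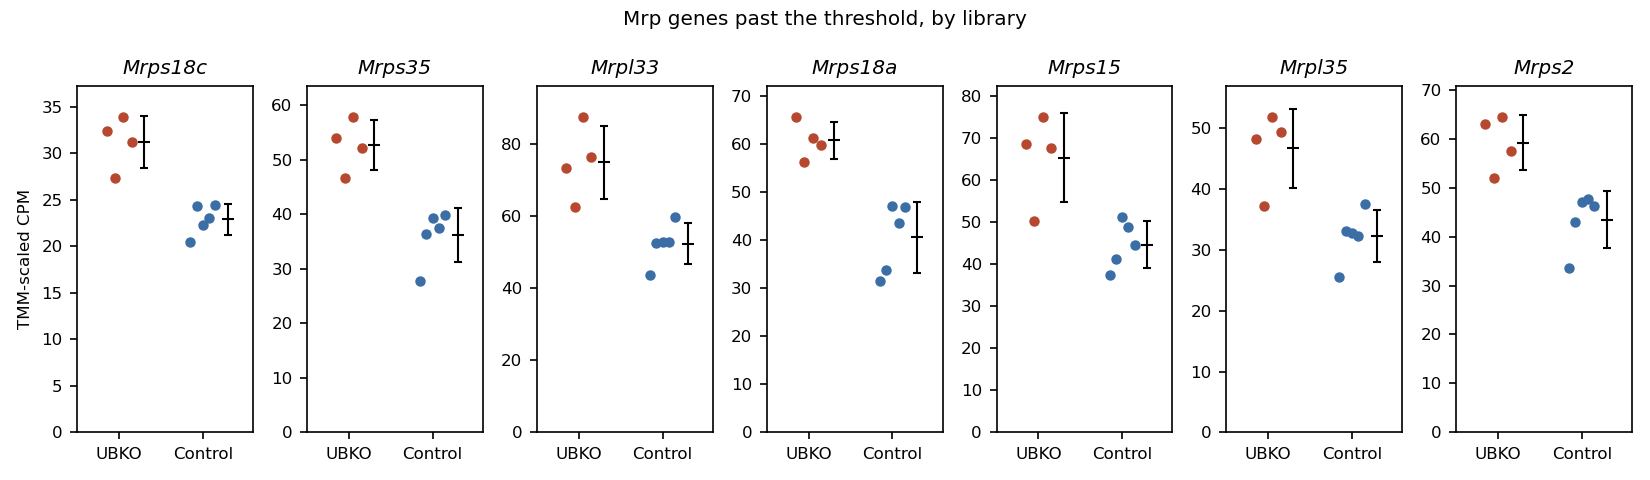
CPM scaled by TMM of the 7 called Mrp genes in each of the 4 UBKO libraries (left in each panel) and 5 Control libraries (right), with the group mean and SD. Groups overlap for Mrps15 and Mrpl35 and for no other panel; UBKO replicate 2 is the lowest UBKO library in all 7 panels.

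Promoter windows are shown for the called genes in which a fixed motif was found, since the differences concern transcript levels. Nuclear genes for mitochondrial proteins are known targets of the ETS-family factor GABP, of NRF1 and of YY1. RefSeq windows of 300 bases (250 before to 50 after the annotated start, GRCm38.p6, which is mm10) were at hand for 69 of the 78 genes and for 6 of the 7 called genes. They were searched on both strands for CCGGAAG (ETS), GCGCATG (NRF1) and AAGATGG (YY1), short cores of the sites of these factors; no match overlaps another in the 4 windows below. The windows are Mrps18a at chr17:46110754-46111053 (plus strand), Mrps18c at chr5:100798509-100798808 (plus strand), Mrpl33 at chr5:31613701-31614000 (plus strand) and Mrpl35 at chr6:71823735-71824034 (minus strand). Those of Mrpl33 and Mrpl35 lie inside the counted genes, whose outermost annotated starts are further upstream, at 31596935 and 71826969. Each window is written 5′ to 3′ on the gene's strand, with the motif matches in capitals.
Mrps18a: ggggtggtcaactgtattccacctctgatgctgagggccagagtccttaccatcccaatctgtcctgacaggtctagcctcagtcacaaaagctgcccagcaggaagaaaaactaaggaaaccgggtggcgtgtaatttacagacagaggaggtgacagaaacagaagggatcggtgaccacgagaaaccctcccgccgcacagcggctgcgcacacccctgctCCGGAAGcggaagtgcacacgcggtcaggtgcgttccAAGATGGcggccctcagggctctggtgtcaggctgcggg
Mrps18c: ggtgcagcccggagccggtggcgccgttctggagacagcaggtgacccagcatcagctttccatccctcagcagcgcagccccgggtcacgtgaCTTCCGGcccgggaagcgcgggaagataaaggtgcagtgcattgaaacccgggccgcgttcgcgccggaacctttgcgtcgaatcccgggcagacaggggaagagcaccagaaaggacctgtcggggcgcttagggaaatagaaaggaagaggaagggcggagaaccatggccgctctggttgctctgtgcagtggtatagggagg
Mrpl33: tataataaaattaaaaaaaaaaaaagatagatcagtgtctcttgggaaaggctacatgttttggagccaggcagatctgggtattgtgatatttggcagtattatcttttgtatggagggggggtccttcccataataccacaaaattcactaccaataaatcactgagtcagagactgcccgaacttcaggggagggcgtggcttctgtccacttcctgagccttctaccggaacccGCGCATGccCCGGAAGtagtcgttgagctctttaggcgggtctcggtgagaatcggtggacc
Mrpl35: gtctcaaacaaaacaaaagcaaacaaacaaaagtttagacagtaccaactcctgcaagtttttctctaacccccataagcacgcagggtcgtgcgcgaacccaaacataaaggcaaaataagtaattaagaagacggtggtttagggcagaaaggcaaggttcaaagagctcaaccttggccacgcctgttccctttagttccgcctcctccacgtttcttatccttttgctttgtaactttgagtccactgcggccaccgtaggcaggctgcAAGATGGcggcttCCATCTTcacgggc
Mrps18a held an ETS and a YY1 match, Mrpl33 an NRF1 and an ETS match, Mrps18c an ETS match on the other strand (CTTCCGG), and Mrpl35 a YY1 match on each strand (AAGATGG and CCATCTT). The YY1 matches lay downstream of the annotated start, at 11 in Mrps18a and at 23 and 36 in Mrpl35. The others began upstream, at -26 in Mrps18a, -156 in Mrps18c, and -12 (NRF1) and -3 (ETS) in Mrpl33. Mrps2 and Mrps15 held none of the 3 motifs in their windows.

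Among the 69 genes with a window, 26 (37.7%) held the ETS motif, against 12.9% of 17492 protein-coding genes and 9.93% of all genes with a window. The YY1 motif was in 13 (18.8%), against 7.18% and 7.28%, and the NRF1 motif in 8 (11.6%), against 5.40% and 4.41%. At least 1 of the 3 motifs was found in 38 of the 69 (55.1%), against 22.8% of protein-coding genes and 19.5% of all genes. Of the 6 called genes with a window 4 held one, and of the 63 others 34 did (54.0%). These are matches of letters, not measured binding.

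By structural place, calls fell in both subunits. Of 51 large-subunit genes, edgeR called 3 higher (5.88%) and DESeq2 8 (15.7%), and the median log2 difference was 0.18. Of 26 small-subunit genes, each tool called 4 higher (15.4%), and the median was 0.23. The shares of all genes were 3.88% higher and 7.56% lower in edgeR, and 6.81% and 11.4% in DESeq2. At an unadjusted p under 0.05 in edgeR they were 12.4% and 16.1%. These shares also apply to the structural places below. The ratio of the summed FPKM of large-subunit to small-subunit genes was 2.05, 2.19, 2.15 and 2.16 in UBKO libraries, against 2.11, 2.11, 2.14, 2.28 and 2.20 in Control libraries. Those ranges overlapped.

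The stalk of the large subunit, where translation factors dock, had 0 of 5 genes called by edgeR, 1 of them at an unadjusted p under 0.05, and 1 called higher by DESeq2. Mrpl11, at the base of the stalk, averaged 40.5 ± 6.64 CPM in UBKO and 29.4 ± 4.70 CPM in Control libraries (SD, n = 4 and 5), a log2 difference of 0.46 (SE 0.15) that DESeq2 called and edgeR did not (adjusted p = 0.0416 with DESeq2 and 0.0759 with edgeR). Mrpl10, which anchors the stalk, averaged 86.8 ± 7.79 CPM in UBKO and 76.1 ± 9.75 CPM in Control libraries (log2 difference 0.19, edgeR adjusted p = 0.328). Mrpl12, the stalk protein that also binds the mitochondrial RNA polymerase, averaged 147 ± 25.4 CPM in UBKO and 144 ± 28.6 CPM in Control libraries, with a log2 difference of 0.03 that was -0.14 without Control replicates 1 and 2. Mrpl53 had the widest difference of the 78, 0.85 (SE 0.44, edgeR adjusted p = 0.232), from 5.73, 4.85, 21.5 and 6.19 CPM in UBKO libraries, against 4.67, 4.69, 6.64, 3.84 and 6.58 CPM in Control libraries. Only the library labelled UBKO replicate 3 stood above the Control range there, and genes that share exon bases with Mrpl53 held 536% as many counts as it did.

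At the exit tunnel, through which the new protein leaves, 0 of 8 genes were called by edgeR and 2 had an unadjusted p under 0.05, while DESeq2 called 1 higher. That was Mrpl39, which averaged 39.7 ± 5.69 CPM in UBKO and 27.8 ± 5.59 CPM in Control libraries (SD, n = 4 and 5; log2 difference 0.52, SE 0.16, adjusted p = 0.0294 with DESeq2 and 0.0689 with edgeR). Mrpl45, which tethers the ribosome to the inner membrane, averaged 59.2 ± 6.76 CPM in UBKO and 51.7 ± 8.56 CPM in Control libraries (log2 difference 0.20, edgeR adjusted p = 0.389). Mrpl47 had a log2 difference of 0.31 (edgeR adjusted p = 0.112), and it shares exon bases with Ndufb5, a subunit of respiratory complex I, and with Actl6a, which together held 1135% as many counts. Ndufb5 itself was higher in UBKO libraries, by 0.89 (edgeR adjusted p = 0.00423). Mrpl23, another tunnel protein, had a log2 difference of 0.05, and its processed pseudogene Mrpl23-ps1 held 203% as many counts as the gene.

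The central protuberance had 0 of 8 genes called by either tool and 0 at an unadjusted p under 0.05, with log2 differences between 0.02 and 0.25. Mrpl18 stood at 0.25 (edgeR adjusted p = 0.241), Mrpl38 at 0.21 (edgeR adjusted p = 0.275) and Mrpl40 at 0.18 (edgeR adjusted p = 0.400). Mrpl58, a peptidyl-tRNA hydrolase that rescues stalled ribosomes, averaged 25.5 ± 3.50 CPM in UBKO and 24.1 ± 6.07 CPM in Control libraries (SD, n = 4 and 5; log2 difference 0.09, SE 0.19). Around the mRNA entry and decoding site of the small subunit, 0 of 3 genes were called by either tool and 0 had an unadjusted p under 0.05. Mrps5 stood at 0.14, Mrps24 at 0.08 and Mrps12 at -0.37 (SE 0.21, edgeR adjusted p = 0.291). Mrps12 had 26.2, 15.3, 22.5 and 13.4 CPM in UBKO libraries, against 19.7, 21.2, 28.1, 27.6 and 28.6 CPM in Control libraries. UBKO replicates 2 and 4 lay below every Control library and the other 2 within the Control range.

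The Mrps18 paralogs occupy different places on the ribosome, and 2 of the 3 were called. Beside Mrps18a and Mrps18c, Mrps18b had 48.8, 26.3, 48.0 and 42.9 CPM in UBKO libraries, against 32.7, 34.1, 30.8, 36.6 and 55.4 CPM in Control libraries. Its groups overlapped, with a log2 difference of 0.13 (SE 0.22, edgeR adjusted p = 0.743). That Mrps18b differed from its paralogs was not tested. Mrps30, like Mrps18a a large-subunit protein under a small-subunit name, had 83.1, 64.3, 78.1 and 75.9 CPM in UBKO libraries, against 36.4, 53.3, 63.6, 59.0 and 57.9 CPM in Control libraries. Every UBKO library lay above every Control library, UBKO replicate 2 by under 1 CPM, and the log2 difference of 0.48 (SE 0.16) passed in DESeq2 and not in edgeR (adjusted p = 0.0369 with DESeq2 and 0.0779 with edgeR). Mrps36, which belongs to the 2-oxoglutarate dehydrogenase complex of the citric acid cycle and not to the ribosome, averaged 7.98 ± 1.38 CPM in UBKO and 8.78 ± 1.74 CPM in Control libraries (SD, n = 4 and 5; log2 difference -0.14, edgeR adjusted p = 0.686). Its processed pseudogenes Mrps36-ps1 and Mrps36-ps2 held 91.2% and 31.4% as many counts.

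Just short of edgeR's threshold stood 2 further large-subunit genes, both called by DESeq2 (adjusted p = 0.0193 for Mrpl1 and 0.0356 for Mrpl50). Mrpl1, of the stalk on the tRNA exit side, had 38.8, 26.1, 38.8 and 38.0 CPM in UBKO libraries, against 21.2, 21.5, 23.9, 28.2 and 28.4 CPM in Control libraries. UBKO replicate 2 fell among the Control libraries while the other 3 UBKO libraries lay close together above them (log2 difference 0.53, SE 0.15, edgeR adjusted p = 0.0511). Mrpl50 averaged 47.5 ± 3.52 CPM in UBKO and 37.9 ± 4.04 CPM in Control libraries (SD, n = 4 and 5; log2 difference 0.33, SE 0.10, edgeR adjusted p = 0.0688). At the other end, 11 of the 78 genes had a negative difference. The lowest, Mrpl37, a large-subunit protein particular to mitochondria, had 76.2, 61.6, 77.4 and 74.5 CPM in UBKO libraries, against 155, 166, 73.3, 69.7 and 64.1 CPM in Control libraries. The 2 high libraries were Control replicates 1 and 2, those with the epididymal transcripts. The log2 difference was -0.54 (SE 0.31, edgeR adjusted p = 0.280) with them and 0.06 without them. Mrps12 and Mrps36, given above, came next, then Mrpl41 at -0.14 (edgeR adjusted p = 0.385) and Mrpl28 at -0.10 (edgeR adjusted p = 0.784), both with overlapping groups.

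The level of the Mrp genes differed far more between genes than between genotypes. FPKM, a level per length, had a median of 10.8 over the 78 genes (mean of the 2 group means). The authors' lengths matched the sum of all distinct annotated exons, which counts overlapping exons more than once and came to between 1.0 and 2.73 times the merged exon bases, so FPKM is understated most for genes with many isoforms. Mrpl12 stood highest, with 74.4, 55.7, 76.2 and 65.7 FPKM in UBKO libraries and 81.5, 74.5, 72.8, 99.6 and 97.2 FPKM in Control libraries. Mrpl34, the counterpart of a bacterial large-subunit protein, averaged 61.0 ± 3.84 FPKM in UBKO and 79.6 ± 7.22 FPKM in Control libraries (SD, n = 4 and 5), and Mrps6, of the small subunit, 51.4 ± 5.42 FPKM in UBKO and 68.8 ± 20.2 FPKM in Control libraries. In Control libraries the mean ± SD ranges of these 3 overlapped. In UBKO libraries those of Mrpl12 (68.0 ± 9.40 FPKM) and Mrpl34 overlapped, and that of Mrps6 lay below both. Mrps7 (36.1 ± 5.26 FPKM in UBKO and 44.3 ± 5.03 FPKM in Control libraries) and Mrpl10 (35.3 ± 3.19 FPKM in UBKO and 39.5 ± 3.63 FPKM in Control libraries) came next and overlapped each other. The same 5 were highest on merged exon lengths, where Mrpl47 (rank 74 of the 78) replaced Mrps17 (rank 70) among the lowest 5. By FPKM the lowest were Mrps17, Mrpl32, Mrpl23, Mrpl15 and Mrps10. Mrps17 had 2.05 ± 0.318 FPKM in UBKO and 2.15 ± 0.478 FPKM in Control libraries. The level of Mrps10 was 0.116 ± 0.00848 FPKM in UBKO and 0.119 ± 0.0200 FPKM in Control libraries. With TMM, none of these 10 genes was called by edgeR or DESeq2; with library totals Mrpl34 was lower. Mrps10 rested on the smallest count in any library, 19 reads.

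Libraries of 1 group also differed from each other over the whole list. The median log2 deviation of the 78 genes from their own mean was 0.22, -0.10, 0.22 and 0.10 in UBKO replicates 1 to 4, and -0.33, -0.15, -0.02, -0.05 and 0.04 in Control replicates 1 to 5. UBKO replicate 2 thus lay below Control replicates 3, 4 and 5, and 20 of the 78 genes were above their mean in it, against 71, 73 and 59 in the other UBKO libraries. Control replicate 1 stood lowest, with 9 genes above their mean. Adipocyte markers, for comparison, had a median deviation of 0.40, -0.09, 0.41 and 0.47 in UBKO replicates 1 to 4, and -0.88, -0.48, 0.20, 0.11 and -0.15 in Control replicates 1 to 5. Of the 12 adipocyte markers edgeR called 3 higher (25%), against 3.88% of all genes. Their median log2 difference was 0.52, and 0.25 without Control replicates 1 and 2. Leaving out 1 library at a time left 1 to 3 of them called, in fits that called 0.915% to 6.01% of all genes higher. The part of the adipocyte markers in the Mrp differences was not tested.

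**Figure D3:**
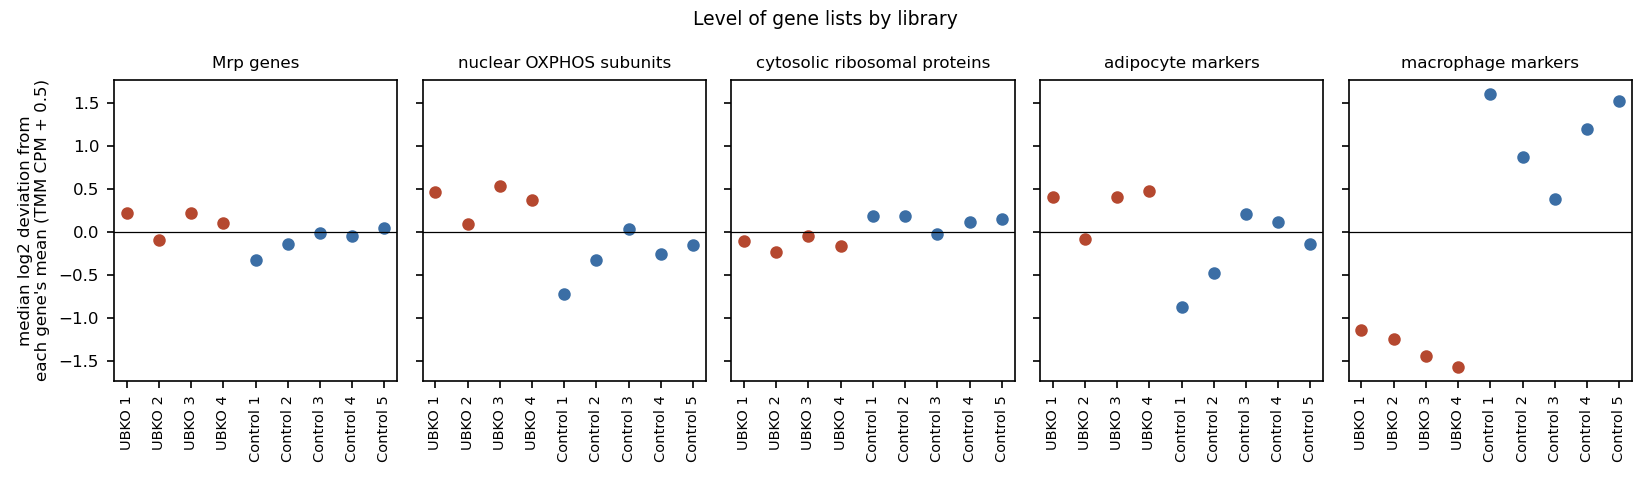
Median log2 deviation of the genes of a list from their own mean over all libraries (CPM scaled by TMM, with 0.5 CPM added), 1 point per library, UBKO replicates 1 to 4 left and Control replicates 1 to 5 right in each panel. For the Mrp genes the medians run between -0.33 (Control replicate 1) and 0.22 (UBKO replicates 1 and 3), and that of UBKO replicate 2, -0.10, lies below those of Control replicates 3 to 5.

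The median of the Mrp genes lay between those of 2 related sets. The nuclear genes for subunits of oxidative phosphorylation, part of which the mitochondrial ribosome's own products join, were called higher in 47 of 82 cases and lower in 0, with a median log2 difference of 0.63. The genes for proteins of the cytosolic ribosome were called higher in 0 of 80 cases and lower in 19, with a median of -0.28. The shares of all genes were 3.88% higher and 7.56% lower. At an unadjusted p under 0.05, 66 of the oxidative phosphorylation genes were higher and 2 lower. Of the cytosolic ribosome genes 0 were higher and 41 lower, against 12.4% and 16.1% of all genes. With library totals the counts were 25 higher and 3 lower for oxidative phosphorylation genes and 0 higher and 62 lower for cytosolic ribosome genes. On that scale 1.46% of all genes were higher and 27.8% lower. Relative to all genes the medians then stood at 0.66 and -0.28. Without Control replicates 1 and 2, oxidative phosphorylation genes were higher in 21 cases with a median of 0.48. Cytosolic ribosome genes were lower in 6 (7.5%) with a median of -0.27. That fit called 1.5% of all genes higher and 4.9% lower. Leaving out 1 library at a time gave 9 to 57 oxidative phosphorylation genes higher and 3 to 27 cytosolic ribosome genes lower, with medians of 0.56 to 0.72 and of -0.32 to -0.23. In the same fits 0.915% to 6.01% of all genes were higher and 3.63% to 9.41% lower. The lowest counts were without the library labelled UBKO replicate 3 (9 higher) and without UBKO replicate 4 (3 lower). Without UBKO replicates 1 or 4, 12 oxidative phosphorylation genes were higher each time, and 30 without Control replicate 2. The cytosolic ribosome count was at most 12 in each of the 9 fits that left out 1 library, except that without Control replicate 3. Whether the sets differ from each other was not tested.

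**Figure D4:**
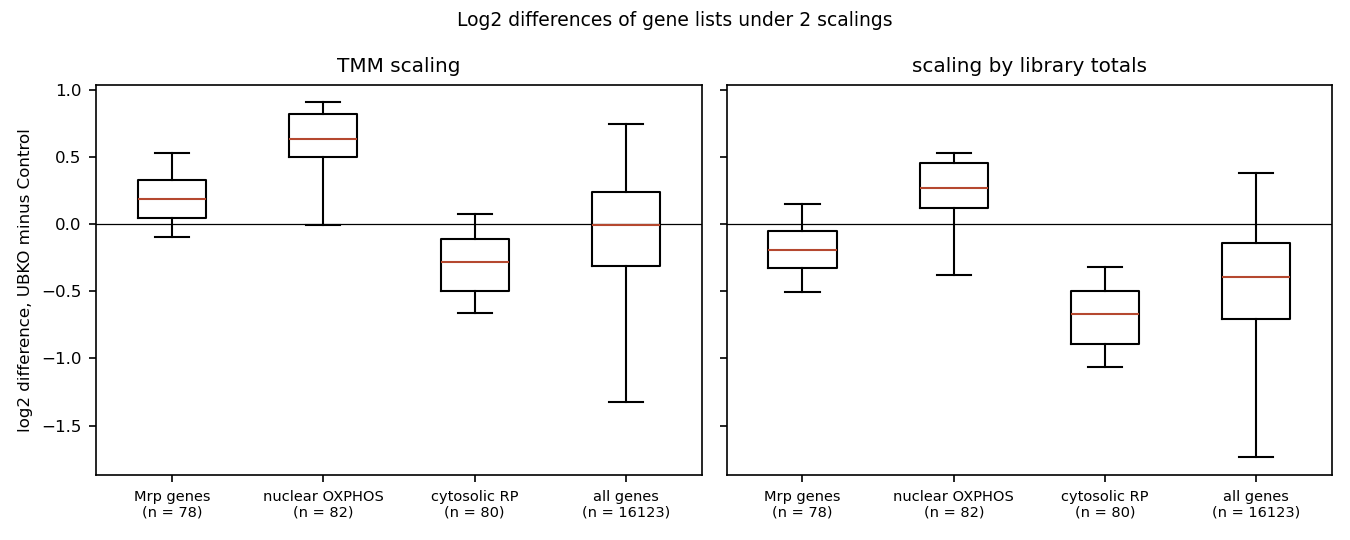
Log2 differences (UBKO minus Control) of the Mrp genes, nuclear oxidative phosphorylation (OXPHOS) subunits, cytosolic ribosomal proteins (RP) and all genes tested, with TMM (left) and with library totals (right), as boxes with median and quartiles and whiskers to the 5th and 95th percentiles. With TMM the medians are 0.63 for oxidative phosphorylation subunits, 0.19 for Mrp genes and -0.28 for cytosolic ribosomal proteins, against -0.01 for all genes; with library totals all shift down together.

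Ratios within a library do not depend on its scaling. The summed FPKM of oxidative phosphorylation genes was 8.36, 8.26, 8.67 and 8.67 times that of the Mrp genes in UBKO replicates 1 to 4, against 4.67, 5.55, 6.84, 5.40 and 5.77 times in Control replicates 1 to 5. Every UBKO library lay above every Control library, with means of 8.49 ± 0.214 in UBKO and 5.65 ± 0.786 in Control libraries (SD, n = 4 and 5). The Mrp genes in turn reached 27.6%, 25.6%, 27.4% and 28.4% of the summed FPKM of cytosolic ribosomal protein genes in UBKO libraries, against 17.3%, 18.8%, 23.0%, 18.5% and 19.5% in Control libraries, again without overlap. Beside the nuclear oxidative phosphorylation genes, the Mrp sum was thus smaller in each UBKO library than in each Control library. Beside the cytosolic ribosomal protein genes it was larger. The rRNAs of the mitochondrial ribosome, given below, are not in the Mrp sum. A ratio shows unequal differences and does not say which side differed.

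**Figure D5:**
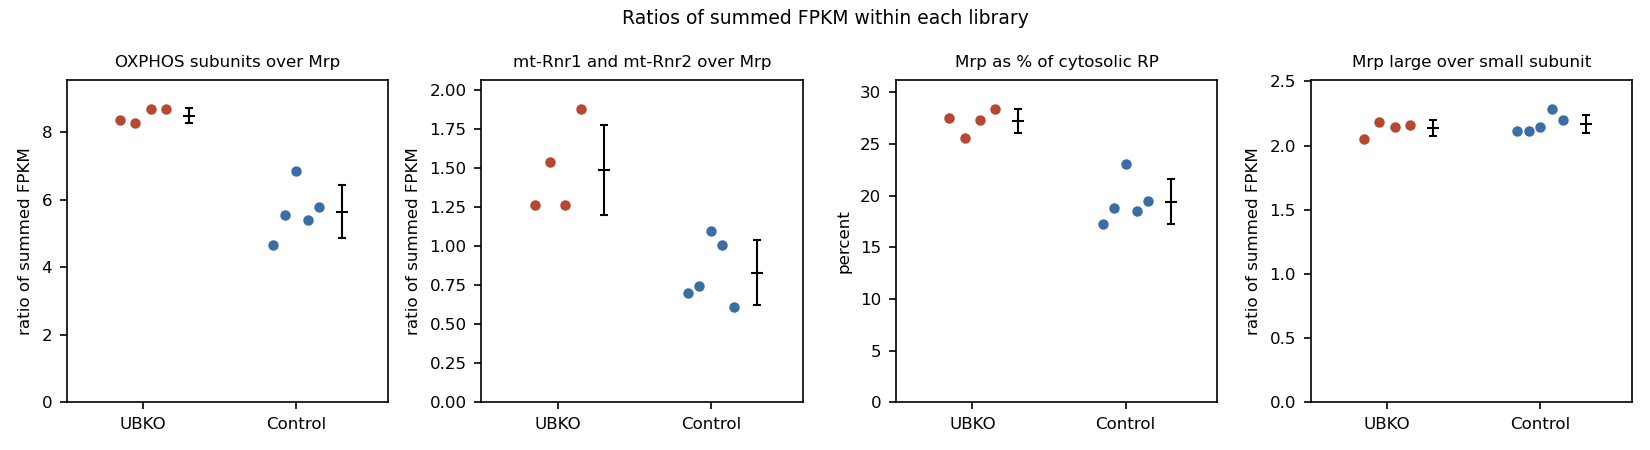
Ratios of summed FPKM within each library, UBKO libraries left and Control libraries right in each panel, with group mean and SD. Oxidative phosphorylation over Mrp genes runs 8.26 to 8.67 in UBKO and 4.67 to 6.84 in Control libraries, while large-subunit over small-subunit genes overlaps, at 2.05 to 2.19 in UBKO and 2.11 to 2.28 in Control libraries.

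Of the 2 rRNAs of the mitochondrial ribosome, edgeR called 1 higher and DESeq2 both. mt-Rnr1, of the small subunit, had 692, 704, 730 and 913 CPM in UBKO libraries, against 287, 304, 441, 443 and 327 CPM in Control libraries. The groups did not overlap, and the log2 difference was 1.08 (SE 0.17, edgeR adjusted p = 0.00477), 0.90 without Control replicates 1 and 2 and 0.71 with library totals. mt-Rnr2, of the large subunit, averaged 1484 ± 304 CPM in UBKO and 809 ± 284 CPM in Control libraries (SD, n = 4 and 5), also without overlap, and did not pass in edgeR (log2 difference 0.88, SE 0.25, adjusted p = 0.0542 with edgeR and 0.00564 with DESeq2). Without Control replicate 3 it passed in edgeR too (adjusted p = 0.0179). Summed rRNA FPKM was 1.26, 1.54, 1.26 and 1.87 times the summed Mrp FPKM in UBKO libraries, against 0.70, 0.74, 1.10, 1.0 and 0.61 times in Control libraries. The way a library is prepared sets how much rRNA it keeps, and its part was not tested.

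None of the other nuclear genes of mitochondrial translation examined passed the edgeR test. Over all genes tested, edgeR called 3.88% higher and 7.56% lower, and DESeq2 6.81% and 11.4%. At an unadjusted p under 0.05 in edgeR, the shares were 12.4% higher and 16.1% lower. Of 5 mitochondrial ribosomal proteins with other names, 0 were called and 0 had an unadjusted p under 0.05: Ptcd3 and Aurkaip1 stood at 0.28, Chchd1 at 0.17, Dap3 at 0.09 and Gadd45gip1 at 0.01. Of 25 assembly factors 0 were called by edgeR, 2 were higher and 2 lower at an unadjusted p under 0.05, and the median was 0.12. The closest were Rpusd4, a pseudouridine synthase of the large rRNA, with 8.19 ± 1.54 CPM in UBKO and 11.7 ± 1.23 CPM in Control libraries (SD, n = 4 and 5; log2 difference -0.51, edgeR adjusted p = 0.0664), and Rcc1l, at -0.35 (edgeR adjusted p = 0.0756). DESeq2 called Rpusd4 lower and none of the others. Of 16 translation factors 0 were called by edgeR and 2 by DESeq2, 6 were higher at an unadjusted p under 0.05, and the median was 0.26. Mrrf, the ribosome recycling factor, averaged 38.8 ± 1.67 CPM in UBKO and 29.2 ± 4.66 CPM in Control libraries (log2 difference 0.41, edgeR adjusted p = 0.0583), and Oxa1l, the insertase that takes new proteins into the inner membrane, stood at 0.35 (edgeR adjusted p = 0.0632). Of 20 genes for charging mitochondrial tRNAs 0 were called by either tool, 4 were higher at an unadjusted p under 0.05, and the median was 0.13, with Iars2, for isoleucine, at 0.46 (SE 0.18, edgeR adjusted p = 0.133).

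Among 10 regulators of nuclear genes for mitochondrial proteins, Ppargc1a was the one called by edgeR with TMM, and by DESeq2. This coactivator, induced by beta-adrenergic signalling, had 7.75, 8.67, 7.74 and 5.70 CPM in UBKO libraries, against 3.11, 5.29, 4.97, 3.65 and 2.85 CPM in Control libraries. The groups did not overlap (log2 difference 0.91, SE 0.23, edgeR adjusted p = 0.0349), and the call was lost without Control replicates 1 and 2 (edgeR adjusted p = 0.0618), with library totals (edgeR adjusted p = 0.127) and in 7 of the 9 fits that left out 1 library, all but those without Control replicate 2 or 3. Tfam, which packages and transcribes mitochondrial DNA, stood at 0.43 (edgeR adjusted p = 0.0817). The factors whose motifs were searched did not pass: Gabpa stood at 0.15, its partner Gabpb1 at 0.27, Nrf1 at 0.02 and Yy1 at -0.01. Ppargc1b stood at 0.50, Esrra at 0.21, Pprc1 at -0.14 and Myc at -0.35 (edgeR adjusted p = 0.218).

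Some Mrp genes share their start region with another gene. For 25 of the 78, a tested protein-coding gene on the opposite strand begins within 500 bases. These give 23 partners outside the family and the pair Mrps11 and Mrpl46. The share of all genes with such a partner was not counted. Over all genes tested, 3.88% were called higher and 7.56% lower. Of the 23 partners 0 were called higher and 1 lower. That was Klc4, a kinesin light chain beside Mrpl2, at -0.48 (edgeR adjusted p = 0.0351), while Mrpl2 itself stood at 0.05; Klc4 lost its call without Control replicate 1, 2 or 4, UBKO replicate 1 or 4, or the library labelled UBKO replicate 3 (edgeR adjusted p up to 0.0902). Mrps18c, the called gene among the 25, lies beside Helq, which stood at 0.28 (edgeR adjusted p = 0.437). Mrpl36 lies beside Ndufs6, a subunit of complex I, and stood at 0.18 with Ndufs6 at 0.23, neither past the threshold. Klc4 and Helq were named after their values were seen.

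Shared exon bases limit some values, since no source used here says whether reads were counted by strand. Another gene overlaps 32 of the 78 on exon bases, and for 19 of them the overlapping genes held at least 10% as many counts. Those 19 had 0 edgeR calls (4 at an unadjusted p under 0.05) and a median log2 difference of 0.08. The 59 others had all 7 calls (11.9% of them, with 18 higher at an unadjusted p under 0.05) and a median of 0.20. Of all genes tested, edgeR called 3.88% higher, and 12.4% were higher at an unadjusted p under 0.05. Without Control replicates 1 and 2, the median was 0.092 for the 19 and 0.087 for the 59. Whether overlap bears on the differences was not tested.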

How the data were processed

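RNA from 9 epididymal fat samples was sequenced as paired-end TruSeq libraries, per the labels' protocols. mm10 is the build and Cuffdiff, HISAT2 and SAMtools 1.3.1 are the tools per the submitters' processing notes; what each did, the counter and its strand setting are not given in those sources. Whole-number counts per gene and FPKM per library were deposited by the authors. Their table also has the log2 ratio of mean FPKM (UBKO over Control) with its deposited p-value and q-value. FPKM was checked against the counts and was scaled to the summed gene counts of each library.

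Counts of all 16123 genes that passed filterByExpr were fitted with edgeR 4.0.16 in R 4.3.3 (TMM, glmQLFit and glmQLFTest, genotype as the only term, two-sided, Benjamini-Hochberg adjustment over all genes tested, threshold 0.05). The fit was tested on simulated data. CPM values are scaled by TMM. Levels within a library used a pseudocount of 0.5 CPM on the log2 scale. Alternatives were DESeq2 1.42.0 (Wald test, and its size factors in edgeR), library totals, no filter, limma 3.58.1 on log2(FPKM + 1) and log2(FPKM + 0.1) (genes with an FPKM of 1 or more in 4 or more libraries), the replicate number as a block, the authors' deposited comparison, and fits without single libraries or without those that stood apart. Sample titles gave the groups and the replicate numbers. No pair of replicates was a duplicate (lowest chi-square per degree of freedom 17.0). Coordinates are those of the deposited table, the same as in GENCODE M21 for all 78 genes, and promoters are RefSeq's for GRCm38.p6.

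Named genes were Ctnnb1; of the Mrp genes, the 10 with the smallest p, the 5 with the lowest difference, the 5 highest and 5 lowest by FPKM, up to 3 per structural place by p, and 9 for their known place or role; and, of each related list, up to 4 by p or the whole list. The genes, lists, motifs, rule and alternatives were chosen with earlier results of these data known.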

Additional observations from a re-analysis of the deposited data

Results flagged for a closer look

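In 13 of 140 groups of 4 or 5 libraries tested, 1 library stood farther from its nearest neighbour than Dixon's 95% limit allows; chance alone flags about 1 in 20 such groups. Values are CPM scaled by TMM. UBKO replicate 2 was low for Mrpl1 (26.1 CPM, the other UBKO libraries 38.0 to 38.8), Mrpl41 (27.0 CPM, the others 33.0 to 33.7) and Mrps24 (23.8 CPM, the others 29.3 to 30.4). The library labelled UBKO replicate 3 was high for Mrpl53 (21.5 CPM, the others 4.85 to 6.19). UBKO replicate 4 was high for Mrpl32 (27.6 CPM, the others 13.5 to 14.3) and for mt-Rnr1 (913 CPM, the others 692 to 730). UBKO replicate 1 was high for Ptcd3 (55.2 CPM, the others 49.8 to 50.5).

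Among Control libraries, replicate 1 was low for Mrps35 (27.8 CPM, the others 36.4 to 39.9) and for Iars2 (97.1 CPM, the others 150 to 169). Control replicate 4 was high for Mrpl15 (24.2 CPM, the others 14.6 to 17.4) and for Ppargc1b (5.23 CPM, the others 2.33 to 2.80). Control replicate 5 was high for Mrps18b (55.4 CPM, the others 30.8 to 36.6) and for Mrpl23 (10.5 CPM, the others 9.16 to 9.43).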

How the results depend on the processing

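The count of Mrp genes called higher, 7, was 12 with DESeq2's Wald test, 4 with no filter on low counts, 2 without Control replicates 1 and 2, and 0 with library totals, with limma at either pseudocount and in the authors' deposited table. Leaving out 1 library at a time gave 0 to 9. The count called lower, 0, was 8 with library totals, where 27.8% of all genes were lower, and 7 with limma at either pseudocount. Shares of all genes called with limma, with no filter and with the replicate number as a block are not given here. Those counts can therefore not be set against the whole table. The median log2 difference, 0.19, was -0.20 with library totals, -0.17 with limma on log2(FPKM + 0.1) and -0.16 on log2(FPKM + 1). Library totals moved the median of all genes by a like amount. With DESeq2 size factors and without Control replicates 1 and 2 and UBKO replicate 2, the counts stayed within 1.5 times and the median positive. The latter fit leaves out the UBKO library that was lowest for all 7 called genes. In the authors' deposited table the lowest q-value of an Mrp gene was 0.144, for Mrps18a.

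Some uncalled genes moved to the other side of 0. Their log2 differences follow with library totals, in the authors' deposited table, and with limma at pseudocounts of 0.1 and 1, in that order. These 4 values were Mrpl50 -0.054, -0.028, -0.025 and -0.024, Mrpl47 -0.076, -0.049, -0.040 and -0.031, Mrpl18 -0.14, -0.11, -0.10 and -0.098, and Mrps17 -0.093, -0.071, -0.053 and -0.041. They were Mrpl38 -0.17, -0.14, -0.14 and -0.13, Mrpl10 -0.19, -0.16, -0.16 and -0.16, Mrpl45 -0.18, -0.15, -0.15 and -0.14, and Mrpl40 -0.20, -0.18, -0.18 and -0.16. The same 4 values were Mrps5 -0.24, -0.22, -0.22 and -0.17, Mrpl58 -0.28, -0.26, -0.24 and -0.18, Mrps24 -0.29, -0.27, -0.27 and -0.24, and Mrps18b -0.27, -0.24, -0.23 and -0.21. The next were Mrpl23 -0.35, -0.32, -0.30 and -0.19, Mrpl12 -0.35, -0.32, -0.32 and -0.32, Mrps7 -0.32, -0.30, -0.30 and -0.29, and Ndufs6 -0.17, -0.14, -0.14 and -0.13. Then came Ptcd3 -0.092, -0.068, -0.064 and -0.053, Aurkaip1 -0.091, -0.068, -0.065 and -0.061, Chchd1 -0.21, -0.19, -0.18 and -0.16, and Dap3 -0.28, -0.26, -0.25 and -0.22. Further values were Gadd45gip1 -0.38, -0.35, -0.35 and -0.34, Gabpb1 -0.13, -0.098, -0.088 and -0.051, Gabpa -0.23, -0.20, -0.20 and -0.17, and Esrra -0.17, -0.14, -0.14 and -0.13. The remaining ones were Oxa1l -0.036, -0.0095, -0.0096 and -0.0091. Mrps10 stood at -0.065 with library totals and -0.038 in the authors' deposited table and Nrf1 stood at -0.37 with library totals and -0.34 in the authors' deposited table.

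Without Control replicates 1 and 2, the values were 0.057 for Mrpl37, -0.14 for Mrpl58, -0.056 for Mrps24, 0.10 for Mrpl28, -0.14 for Mrpl12, 0.18 for Mrps6, -0.13 for Mrps7, -0.018 for Dap3, -0.031 for Gadd45gip1 and -0.050 for Nrf1. Without UBKO replicate 2 as well, they were 0.15 for Mrpl37, -0.029 for Mrps17, -0.036 for Mrpl58, 0.21 for Mrpl28, 0.29 for Mrps6, -0.014 for Mrps7, 0.042 for Yy1 and -0.017 for Nrf1. With DESeq2 size factors they were 0.011 for Mrpl15 and 0.0042 for Yy1, and with no filter 0.0044 for Mrpl15. Leaving out 1 library at a time gave -0.089 to 0.15 for Mrpl15, -0.031 to 0.021 for Yy1, -0.0028 to 0.23 for Mrpl58, -0.034 to 0.15 for Mrpl23, -0.043 to 0.15 for Mrpl12, -0.034 to 0.17 for Mrps7, -0.042 to 0.078 for Gadd45gip1, -0.054 to 0.10 for Nrf1, -0.067 to 0.037 for Mrpl34, -0.11 to 0.070 for Mrps6 and -0.20 to 0.0021 for Mrpl28. The cause of each was not tested.

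With the replicate number as a block, 0 Mrp genes were called higher and Mrpl34 stood at 0.018. Correlations between the deviations of same-numbered libraries were -0.18, 0.54, 0.09 and 0.16, and only UBKO replicate 2 correlated best with its own number. They take in every difference between libraries, so they cannot decide whether the numbers pair animals. The labels do not say. The smallest count, 19 reads in a library for Mrps10, and a median SE of 0.14 limit what could be called.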
